A study of Homo sapiens with 6 samples.

Results

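Peroxisomes are small organelles that break down fatty acids, remove hydrogen peroxide and make ether lipids, and the 31 genes described here encode the machinery that builds them and many of the enzymes and membrane carriers that work in them. The genes were taken by name from a list of peroxins (PEX genes), peroxisomal enzymes and transporters, and 28 of the 31 had a row among the 25808 genes of the deposited table. ECH1, DECR2 and AMACR, all of them lipid oxidation enzymes, were not analysed here. The list was not chosen by a measured value, but it was drawn up with earlier results of these data known. RNA came from HK2 cells, an immortalised line from human kidney proximal tubule. The TBOEP group has 3 libraries, from cells grown to confluence and then exposed to 20 µM for 48 hours. The control group has 3 libraries from DMSO cells, for which neither dose nor time is labelled. TBOEP, tris(2-butoxyethyl) phosphate, is added to plastics and polishes as a plasticiser and to slow burning. All libraries are of 1 cell line. Nothing in the labels ties replicates to separate cultures, and p-values therefore measure the spread between libraries alone, which may be technical.

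Proteins of the peroxisome are made in the cytosol. PEX3, PEX16 and PEX19 place its membrane proteins, PEX5 and PEX7 carry enzymes to it, PEX13 and PEX14 form the dock at its membrane, and PEX2 and PEX10 are subunits of a ubiquitin ligase that lets the receptor return to the cytosol with the help of PEX6 and PEX26. Inside, beta-oxidation shortens very long and branched fatty acids, alpha-oxidation removes a carbon from phytanic acid, and GNPAT and AGPS begin ether lipid synthesis. Proximal tubule cells of the kidney are known for abundant peroxisomes.

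The deposited values carried no unit and were read as FPKM, reads scaled to gene length and library depth. Steps between the values implied 32547856 to 38247579 reads behind each library. Of 12 proximal tubule markers, 10 had a row and 4 (PAX8, MIOX, CDH6 and ALPL) averaged at least 1 FPKM, while CUBN averaged 0.00359 FPKM and was listed at 0 in the TBOEP libraries. LRP2 and SLC22A6 were not analysed here. Summed over the list, these markers reached 63.4 to 65.1 FPKM in DMSO libraries and 56.1 to 59.97 FPKM in TBOEP libraries. Most of that sum was PAX8, at 37.1 FPKM in DMSO and 36.7 in TBOEP on average, and MIOX. MIOX fell from 19.9 to 14.9 FPKM (limma adjusted p = 0.00178). Epithelial markers (KRT8, KRT18, EPCAM, CDH1) summed to 442 to 450.3 FPKM in DMSO and 395 to 401 in TBOEP, with CDH1 near 0. KRT8 averaged 338 FPKM in DMSO and 273 in TBOEP, while KRT18 rose from 94.8 to 110.4 FPKM (limma adjusted p = 3.53e-04) and EPCAM averaged 12.9 and 14.6 FPKM. Fibroblast markers, nearly all of it COL1A1, summed to 26.1 to 29.1 FPKM in DMSO and 22.2 to 22.5 in TBOEP, and leukocyte markers, nearly all of it CSF1R, to 1.2 to 1.71 FPKM in DMSO and 1.24 to 1.35 in TBOEP. Measured markers of podocytes (NPHS1), loop and distal tubule (SLC12A3) and endothelium (PECAM1, CDH5) summed to at most 0.0628 FPKM for a cell type in any library, and those of collecting duct were not analysed here. The part of these markers in the results was not tested. In bulk RNA, fewer cells of a type and less RNA per cell cannot be told apart.

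TBOEP libraries held more mRNA of a peroxisomal membrane carrier (SLC25A17), of both alpha-oxidation enzymes (HACL1 and PHYH) and of the reductase PECR, and less of the membrane channel PXMP2, while the 4 core beta-oxidation genes measured did not pass the test. The rise of PHYH was not called once the GC content and length of transcripts were corrected for (0.10, limma adjusted p = 0.448), as described with the GC values of the genes. Fold changes were tested with limma on log2(FPKM + 1), a scale on which low genes appear to change less than they do. The Benjamini-Hochberg adjustment ran over the 9631 genes that reached 1 FPKM in 3 libraries or more, and 27 of the 28 genes did. At an adjusted p under 0.05, 13 rose, 3 fell and 11 did not pass. Over all tested genes 53.8% were called, 26.9% as higher and 26.9% as lower. The median log2 fold change was 0.18 over the 27 genes and -0.02 over all tested genes. PEX11A and HSD17B4 reached the 1 FPKM limit in the TBOEP libraries alone, and PEX11A is among the 13; without both genes, 12 of 25 rose and 3 fell. In 14 of the 27 genes every TBOEP library lay above every DMSO library and in 5 every one lay below, against 30.5% and 31.8% of all tested genes (62.3% together). Without PEX11A and HSD17B4, whose place in the test went with their separation, these were 12 and 5 of 25 genes. The rises were 1.22-fold to 2.63-fold as ratios of mean FPKM, and 8 of the 13 were under 0.5 on the log2 scale. With each library centred on its median, 10 rose and 6 fell: the rises of PEX3, CAT and LONP2 were no longer called (limma adjusted p = 0.0653, 0.115 and 0.127), and PEX14, PEX6 and ACAA1 were called lower (0.0429, 0.029 and 0.0275). Over all genes that centring called 5485 of 9631, and it changed the share of rises among calls from 50.1% to 38.6%.

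**Figure D1:**
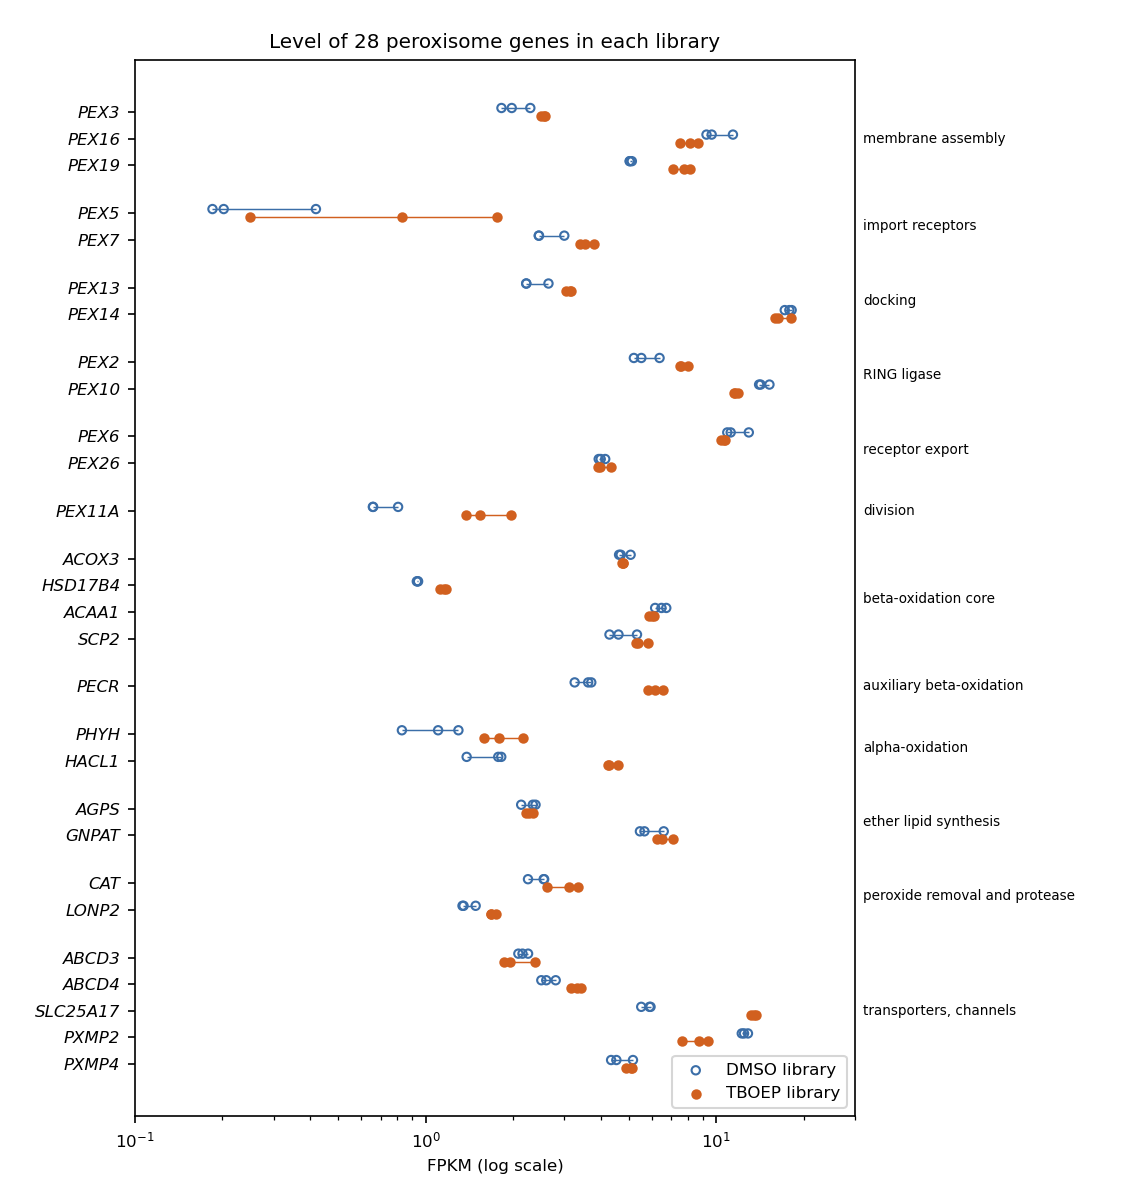
Level of each of the 28 peroxisome genes in FPKM on a log axis, with open circles for the 3 DMSO libraries, filled circles for the 3 TBOEP libraries, and lines from the lowest to the highest library of a group. SLC25A17 and HACL1 are parted most clearly to the right in TBOEP, PXMP2 to the left, and the TBOEP libraries of PEX5 spread from 0.249 to 1.75 FPKM.

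**Figure D2:**
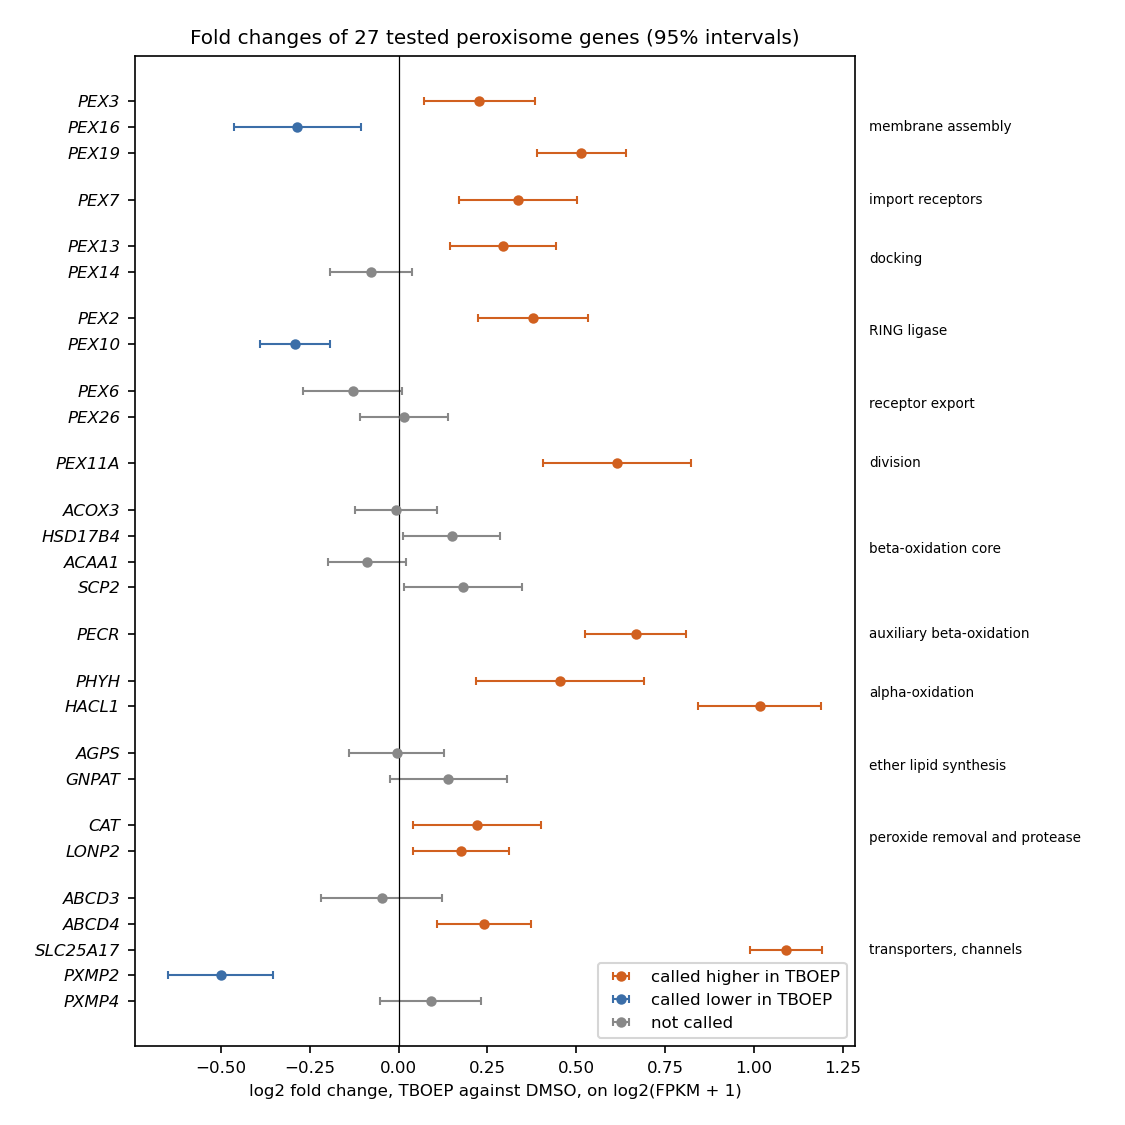
Log2 fold change of the 27 tested genes, TBOEP against DMSO, on the log2(FPKM + 1) scale, with 95% intervals from limma and colours for the calls. The 13 genes called higher reach 1.09 in SLC25A17, and the 3 called lower reach -0.50 in PXMP2.

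Summed over the 16 enzymes, transporters and channels, the level was 62.0, 63.2 and 63.9 FPKM in DMSO replicates 1 to 3 and 76.5, 74.8 and 76.2 FPKM in TBOEP replicates 1 to 3. Over the 12 peroxins it was 76.8 ± 1.69 FPKM in DMSO and 78.3 ± 0.996 FPKM in TBOEP (mean ± SD, n = 3 per group). The groups of the enzyme and carrier sum did not overlap, and those of the peroxin sum did. Both sums are descriptions, with no test. SLC25A17 alone averaged 5.78 ± 0.231 FPKM in DMSO and 13.4 ± 0.266 FPKM in TBOEP within the first sum, and the median log2 fold change of its 16 genes was 0.16, or 0.03 with GC content and length corrected for.

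Among the membrane proteins, SLC25A17 (ENSG00000100372) encodes PMP34, a carrier of coenzyme A and other nucleotide cofactors in the peroxisomal membrane. Its level was 5.89, 5.52 and 5.94 FPKM in DMSO and 13.5, 13.2 and 13.7 FPKM in TBOEP. The TBOEP libraries lay close together and far above all DMSO libraries. The ratio of the means was 2.32, and the log2 fold change of 1.09 ± 0.04 (SE; limma adjusted p = 3.78e-07) ranked 47 among the rises of 9631 genes. PXMP2 (ENSG00000176894), which forms a channel for small solutes in the same membrane, measured 12.5, 12.2 and 12.8 FPKM in DMSO and 8.74, 7.64 and 9.34 FPKM in TBOEP. It was lower in every TBOEP library, at a log2 fold change of -0.50 ± 0.07 (limma adjusted p = 2.44e-04). Thus the ratio of SLC25A17 to PXMP2 within a library was 0.462 ± 0.0111 in DMSO and 1.58 ± 0.132 in TBOEP (mean ± SD, n = 3 per group). These genes had the largest rise and the largest fall of the 27 on the log2(FPKM + 1) scale, so the ratio only restates their fold changes. Their transcripts have 39.2% and 57.6% GC.

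ABCD4 belongs to the family of peroxisomal ABC transporters, although the protein is known to act in lysosomal export of cobalamin. It rose from 2.80, 2.60 and 2.50 FPKM to 3.32, 3.41 and 3.15 FPKM (log2 fold change 0.24, limma adjusted p = 0.00743). ABCD3, or PMP70, which imports branched acyl-CoAs and bile acid precursors, measured 2.25, 2.08 and 2.15 FPKM in DMSO and 2.38, 1.95 and 1.87 FPKM in TBOEP. Its groups overlapped (log2 fold change -0.05, 95% interval -0.22 to 0.12, limma adjusted p = 0.612). PXMP4, a further membrane protein, did not pass either, at 0.09 (95% interval -0.05 to 0.23).

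In alpha-oxidation, HACL1 (ENSG00000131373), the lyase that cleaves hydroxyacyl-CoA after PHYH has hydroxylated it, measured 1.78, 1.38 and 1.82 FPKM in DMSO and 4.59, 4.25 and 4.27 FPKM in TBOEP. The groups were far apart, with a ratio of means of 2.63, the highest among the 13 called rises. Its log2 fold change was 1.02 ± 0.08 (limma adjusted p = 9.76e-06), rank 70 among the rises of all tested genes. PHYH (ENSG00000107537), the phytanoyl-CoA hydroxylase that is deficient in Refsum disease, measured 0.828, 1.10 and 1.30 FPKM in DMSO and 1.78, 2.16 and 1.58 FPKM in TBOEP. Every TBOEP library was higher, on 107 to 254 reads per library, and the log2 fold change was 0.45 ± 0.10 (limma adjusted p = 0.00579), which the correction for GC and length took to 0.10. PECR (ENSG00000115425), a reductase of unsaturated fatty acyl-CoAs, measured 3.26, 3.71 and 3.62 FPKM in DMSO and 6.57, 6.17 and 5.84 FPKM in TBOEP. It rose without overlap, at 0.67 ± 0.06 (limma adjusted p = 3.24e-05).

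The 250 bases before the RefSeq start of SLC25A17, HACL1 and PECR, whose rises were the largest of the 27 genes on the log2(FPKM + 1) scale, and of PXMP2, with the largest fall, are shown to set their promoters side by side. As a ratio of means PEX11A, at 2.30, exceeded PECR, at 1.75. Sequences are from GRCh38.p14, each read 5′ to 3′ on the gene's strand.
SLC25A17 (chr22:40819347-40819596, minus strand): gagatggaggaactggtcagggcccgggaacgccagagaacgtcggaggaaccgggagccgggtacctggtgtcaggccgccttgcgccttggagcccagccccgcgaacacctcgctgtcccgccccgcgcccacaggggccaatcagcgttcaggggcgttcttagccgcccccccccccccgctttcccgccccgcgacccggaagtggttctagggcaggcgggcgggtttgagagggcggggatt
HACL1 (chr3:15601570-15601819, minus strand): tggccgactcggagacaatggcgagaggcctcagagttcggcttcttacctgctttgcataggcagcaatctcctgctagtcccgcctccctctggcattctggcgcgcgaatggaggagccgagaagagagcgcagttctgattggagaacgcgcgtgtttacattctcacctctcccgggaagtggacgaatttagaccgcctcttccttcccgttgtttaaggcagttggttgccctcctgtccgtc
PECR (chr2:216081810-216082059, minus strand): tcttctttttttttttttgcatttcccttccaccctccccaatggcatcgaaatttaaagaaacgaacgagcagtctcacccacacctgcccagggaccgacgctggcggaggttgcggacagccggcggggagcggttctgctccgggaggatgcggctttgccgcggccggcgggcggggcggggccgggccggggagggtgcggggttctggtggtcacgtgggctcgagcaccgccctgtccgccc
PXMP2 (chr12:132687337-132687586, plus strand): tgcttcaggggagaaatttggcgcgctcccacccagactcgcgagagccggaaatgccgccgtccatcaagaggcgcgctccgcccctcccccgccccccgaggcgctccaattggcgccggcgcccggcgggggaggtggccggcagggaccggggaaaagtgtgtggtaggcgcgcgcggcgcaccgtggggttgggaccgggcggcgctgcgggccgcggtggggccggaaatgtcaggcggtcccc
These stretches hold 71.2%, 57.2%, 66.0% and 74.8% G and C in that order. They were searched on both strands for the core motif AGGTCA of nuclear receptors and for its direct repeat, AGGTCA followed by any 1 base and AGGTCA again, which the receptor PPARA binds with RXR and through which fibrates are known to induce peroxisomal genes in rodents. Neither was found, so no base is in capitals. RefSeq promoters from 250 bases before to 50 after the start were matched for 26 of the 31 genes, with 33 promoters in all. The direct repeat was in 0 of the 33 and in 0.0228% of all 35116 promoters. The core motif, which is part of the direct repeat, was in 3 of the 33 and in 13.8% of all promoters. Its matches are shown with the motif in capitals as it reads on the gene's strand.
AGPS (chr2:177392727-177392754, plus strand): gccgctctgagTGACCTttcacccgcgc
ABCD4 (chr14:74302901-74302928, minus strand): cctcgggtctcAGGTCAtggcggtcgcg
PXMP4 (chr20:33720448-33720475, minus strand): caaatcgtgtgTGACCTtgggcggagcc
Of these genes ABCD4 rose, and AGPS and PXMP4 did not pass the test. A match or its absence in these windows is a description of letters only.

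Core beta-oxidation runs through an acyl-CoA oxidase, the bifunctional protein and a thiolase, here represented by ACOX3, HSD17B4 (D-bifunctional protein), ACAA1 and SCP2, whose longer form is a thiolase. None of these 4 genes passed the limma test in the fit described, although the intervals of HSD17B4 and SCP2 lay above 0 before adjustment. Summed, they came to 16.9 ± 0.486 FPKM in DMSO and 17.4 ± 0.199 in TBOEP (mean ± SD, n = 3 per group). ACAA1 (ENSG00000060971) measured 6.16, 6.73 and 6.48 FPKM in DMSO and 5.87, 6.12 and 6.03 FPKM in TBOEP. Each TBOEP library was slightly lower, at -0.09 (95% interval -0.20 to 0.02, limma adjusted p = 0.156). ACOX3 averaged 4.80 ± 0.24 FPKM in DMSO and 4.76 ± 0.0228 FPKM in TBOEP (mean ± SD, n = 3 per group), a log2 fold change of -0.01 (95% interval -0.12 to 0.11). SCP2 overlapped between groups, at 0.18 (95% interval 0.02 to 0.35, limma adjusted p = 0.0639), and passed at 0.25 without DMSO replicate 3 (limma adjusted p = 0.0114). It was also called higher by limma-voom (0.22, adjusted p = 0.00798), with a filter at 5 FPKM (limma adjusted p = 0.0394) and with GC content and length corrected for (0.0408).

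HSD17B4 (ENSG00000133835) measured 0.942, 0.938 and 0.932 FPKM in DMSO and 1.18, 1.12 and 1.15 FPKM in TBOEP. These low levels went with an unusual gene length. The steps between its FPKM values implied 24901 bases, against 10664 bases of merged exons in GENCODE 29. Its longest coding transcript has 2881 bases. Behind these FPKM values lay 783 to 1050 reads per library. All TBOEP libraries were higher, but on the log2(FPKM + 1) scale the fold change was 0.15 ± 0.06 (limma adjusted p = 0.0619). Limma-voom on the recovered reads called it higher, at 0.29 (adjusted p = 7.81e-04). Correcting for GC content and length, as described with the GC values of the genes, gave -0.05 (limma adjusted p = 0.505). Levels of different genes in FPKM depend on such lengths; the implied length equalled the merged exons of GENCODE 29 in 8 of the 28 genes.

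Of the ether lipid enzymes, neither passed. GNPAT, the acyltransferase that starts the pathway, measured 5.46, 6.59 and 5.66 FPKM in DMSO and 6.23, 6.48 and 7.09 FPKM in TBOEP. The groups overlapped (log2 fold change 0.14, limma adjusted p = 0.134), and without DMSO replicate 2 it passed at 0.21 (limma adjusted p = 0.0263). AGPS, which exchanges the acyl for an alkyl group, had a log2 fold change of -0.01 (95% interval -0.14 to 0.13).

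Catalase (CAT, ENSG00000121691), which destroys hydrogen peroxide, measured 2.56, 2.25 and 2.55 FPKM in DMSO and 2.62, 3.12 and 3.35 FPKM in TBOEP. TBOEP replicate 1 was only just above the DMSO libraries, and the rise of 0.22 ± 0.08 had a limma adjusted p of 0.0427. LONP2, a protease of the peroxisomal matrix, rose from 1.35, 1.49 and 1.34 FPKM to 1.68, 1.75 and 1.67 FPKM (0.18 ± 0.06, limma adjusted p = 0.0343). Both calls were marginal: that of CAT ended without any 1 of DMSO replicates 1, 2 and 3 or TBOEP replicates 2 and 3 (limma adjusted p 0.0607 to 0.136), and that of LONP2 without DMSO replicate 1 or 3 or any 1 TBOEP replicate (0.0614 to 0.102).

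Among the peroxins, subunits of the ubiquitin ligase moved in opposite directions. Of the 11 tested, 6 rose, 2 fell and 3 did not pass, against 26.9% each way over all tested genes. The 6 include PEX11A, which reached the 1 FPKM limit in the TBOEP libraries alone. Among those that place membrane proteins, PEX19 (ENSG00000162735), the chaperone that carries them, measured 5.05, 5.12 and 5.03 FPKM in DMSO and 8.15, 7.77 and 7.11 FPKM in TBOEP. It rose without overlap, at 0.51 ± 0.05 (limma adjusted p = 7.22e-05). PEX3, the anchor of PEX19, averaged 2.03 ± 0.239 FPKM in DMSO and 2.54 ± 0.0394 FPKM in TBOEP (mean ± SD, n = 3 per group). Its rise of 0.23 (limma adjusted p = 0.0216) was no longer called when DMSO replicate 2 or 3, or TBOEP replicate 1 or 2, was left out (0.0546 to 0.0700). PEX16, which recruits PEX3, fell from 9.64, 11.4 and 9.25 FPKM to 8.10, 7.52 and 8.66 FPKM (-0.28 ± 0.08, limma adjusted p = 0.0148). That call ended with no filter on low values (0.0851) and with GC content and length corrected for (-0.02, limma adjusted p = 0.806). The ratio of PEX19 to PEX16 within a library was 0.524, 0.449 and 0.544 in DMSO and 1.01, 1.03 and 0.821 in TBOEP. That ratio restates their fold changes and is not freed from the difference in GC content, 45.8% in PEX19 and 61.4% in PEX16. Nor is it freed from the exon bases that PEX19 shares with another gene, as described below.

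The receptor PEX7, which brings in enzymes with a signal near the start of the protein, such as ACAA1, PHYH and AGPS, measured 3.0, 2.45 and 2.45 FPKM in DMSO and 3.40, 3.80 and 3.54 FPKM in TBOEP (0.34 ± 0.07, limma adjusted p = 0.00457). PEX5 (ENSG00000139197), the receptor for enzymes with a signal at the end of the protein, was the lowest of the 28 genes. It measured 0.419, 0.185 and 0.202 FPKM in DMSO and 0.249, 1.75 and 0.829 FPKM in TBOEP, from 88, 34 and 40 reads and 49, 336 and 148 reads. TBOEP replicate 2 alone exceeded 1 FPKM, replicate 1 lay within the DMSO range, and the gene was too low for the test. With no filter on low values its log2 fold change was 0.55 ± 0.28 (limma adjusted p = 0.305).

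At the dock, PEX13 measured 2.65, 2.22 and 2.22 FPKM in DMSO and 3.13, 3.17 and 3.05 FPKM in TBOEP, a rise of 0.29 ± 0.07 (limma adjusted p = 0.005). Its partner PEX14, the most abundant of the 28 genes in FPKM, measured 17.8, 17.2 and 18.2 FPKM in DMSO and 15.9, 18.0 and 16.3 FPKM in TBOEP. The PEX14 groups overlapped (-0.08, 95% interval -0.19 to 0.04, limma adjusted p = 0.225).

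In the ubiquitin ligase, PEX2 (ENSG00000164751) rose and PEX10 (ENSG00000157911) fell. PEX2 measured 5.2, 5.52 and 6.38 FPKM in DMSO and 7.56, 7.51 and 8.01 FPKM in TBOEP (0.38 ± 0.07, limma adjusted p = 0.00154). PEX10 measured 14.0, 15.2 and 14.2 FPKM in DMSO and 11.5, 11.6 and 11.9 FPKM in TBOEP (-0.29 ± 0.04, limma adjusted p = 5.41e-04). The ratio of PEX2 to PEX10 within a library, which does not depend on how libraries are scaled, went from 0.371, 0.362 and 0.449 to 0.657, 0.647 and 0.676. It is not freed from the difference in GC content, 40.4% in PEX2 and 59.2% in PEX10. Nor is it freed from the exon bases that PEX10 shares with another gene, as described below.

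Of the receptor export machinery, PEX6, an ATPase, measured 11.2, 12.9 and 10.9 FPKM in DMSO and 10.7, 10.4 and 10.6 FPKM in TBOEP. It did not pass (-0.13, limma adjusted p = 0.105), but was called lower at -0.17 without DMSO replicate 3 (limma adjusted p = 0.0485), at -0.19 with median centring (0.029) and at -0.18 with quantile normalization (0.0272). PEX26, its membrane anchor, had a log2 fold change of 0.01 (95% interval -0.11 to 0.14).

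PEX11A (ENSG00000166821) takes part in elongation and division of peroxisomes and is known in rodents as a target of PPARA. It measured 0.660, 0.658 and 0.804 FPKM in DMSO and 1.96, 1.37 and 1.54 FPKM in TBOEP, with 70 to 223 reads per library. All TBOEP libraries were higher, with a ratio of means of 2.30 and a log2 fold change of 0.62 ± 0.09 (limma adjusted p = 5.32e-04). On the recovered reads limma-voom gave 1.19. With no filter on low values, so that its level did not decide whether it was tested, the adjusted p was 0.00731.

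Rises and falls among the 27 tested genes lay at different GC contents of their transcripts. The 13 that rose had 35.4 to 51.5% GC with a median of 44.6%, and the 3 that fell had 57.6 to 61.4%. Of all tested genes with 45 to 50% GC, 47.3% rose and 10.5% fell, and of those with 60% GC or more, 0.966% rose and 64.5% fell. Under 40% GC, 19.3% of all tested genes rose and 21.4% fell, and 3 of the 6 peroxisome genes there rose and 0 fell. At 40 to 45% GC 5 of 7 peroxisome genes rose, against 35.5% of all tested genes. At 45 to 50% GC 4 of 6 rose, and at 50 to 55% 1 of 2, against 47.3% and 41.6%. At 55 to 60% GC 2 of 3 fell, and at 60% or more 1 of 3, against 32.7% and 64.5%. With 2 to 7 peroxisome genes in a bin, these shares are too coarse to set against those of all genes. The median GC content was 45.2% in the 27 genes and 50.7% in all tested genes. A smooth surface of GC content and transcript length was therefore fitted to each library and subtracted. After it, 12 of the 27 genes were called higher and 3 lower, against 23.1% and 20.2% (together 43.3%) of all genes with known GC content. Of the 13 rises 9 and of the 3 falls 2 were still called, and the median of the 27 went from 0.18 to 0.10. Without PEX11A and HSD17B4, 11 of 25 genes were called higher and 3 lower after correction, and 8 of 12 rises were still called.

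SLC25A17 changed least among the large rises under this correction, from 1.09 to 0.98 (limma adjusted p = 8.42e-07). HACL1 went to 0.66, PECR to 0.34 and PEX11A to 0.38, each still called. PEX2 and PEX13 were at 0.39 and 0.34, and PXMP2 and PEX10 at -0.29 and -0.20. The calls of PHYH (0.10), PEX7 (0.02), ABCD4 (0.03), CAT (-0.10) and PEX16 (-0.02) ended. PEX14 (0.16), PEX26 (0.16) and SCP2 (0.19) were called higher and ACOX3 (-0.16) lower. The part of GC content in the differences before correction was not tested otherwise.

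**Figure D3:**
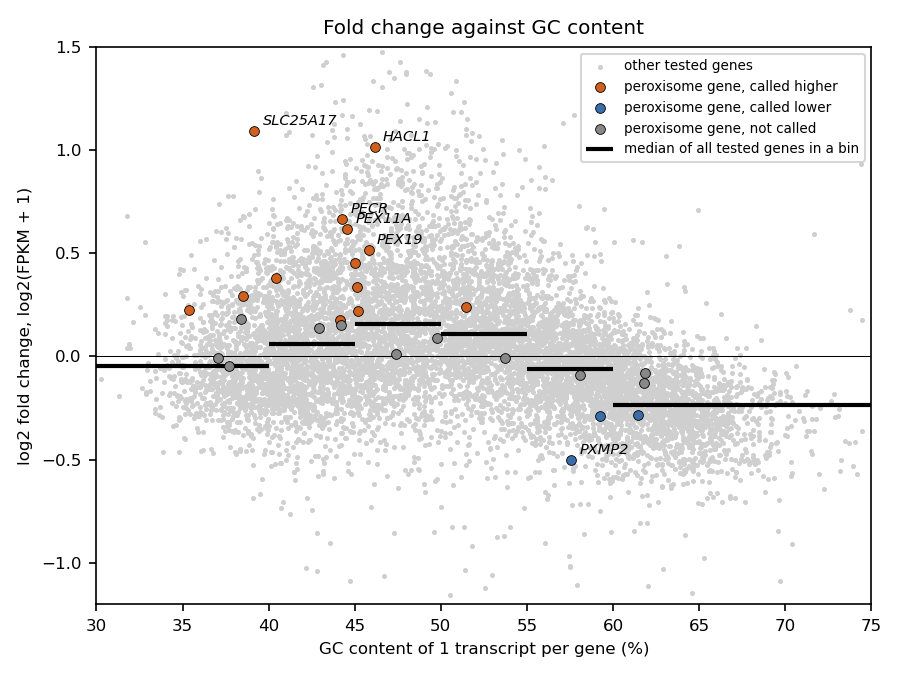
Log2 fold change on log2(FPKM + 1) against GC content of 1 transcript per gene, with other tested genes as small grey points, peroxisome genes as large points coloured by call, and bars for the median of all tested genes in a bin of GC content; genes outside the axes are not drawn. The 3 peroxisome genes called lower lie above 57% GC, and SLC25A17 lies far above the median of its bin.

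**Figure D4:**
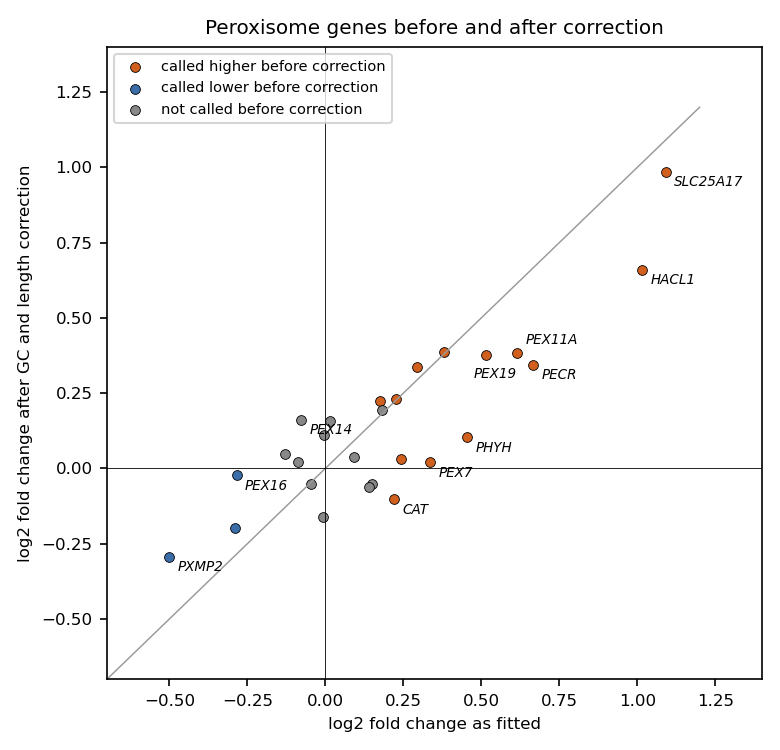
Log2 fold change of the 27 tested genes after the correction for GC content and length, against that before it; the diagonal marks equal values and colours give the call before correction. SLC25A17 lies near the diagonal at 0.98, while PHYH, PEX7 and CAT lie near or below 0 after correction.

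Some of these genes share exon bases with others, and whether counting used strand is not known. Other genes of GENCODE 29 overlapped more than 10% of the exon length of 8 of the 28 genes. PEX10 shared 39.1% with RER1 on the opposite strand, which rose from 35.5 to 42.5 FPKM while PEX10 fell. HACL1 shared 15.4% with BTD, also on the opposite strand, which went from 0.676 to 1.17 FPKM. PXMP2 shared 29.1% with AC135586.2 and PEX19 shared 16.3% with AL139011.2, both on the same strand. ACAA1 shared 21.2%, LONP2 21.0%, SCP2 20.7% and PEX26 14.2% with other genes. SLC25A17, PEX2, PEX11A, PHYH and CAT shared 0 bases. How reads in shared bases were assigned was not tested.

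Of 52 further peroxins, enzymes and transporters, 49 had a row and 25 were tested; 5 rose, 10 fell and 10 did not pass, with a median of -0.10. These were 5 and 10 of 25, against 26.9% each way over all tested genes. PRDX5, a peroxiredoxin found in peroxisomes, mitochondria and cytosol, averaged 606 ± 7.86 FPKM in DMSO and 427 ± 12.2 FPKM in TBOEP, a log2 fold change of -0.51 (limma adjusted p = 2.25e-06) that was -0.15 with GC content and length corrected for. The glutathione transferase GSTK1 measured 16.3, 14.4 and 15.1 FPKM in DMSO and 26.1, 24.4 and 24.9 FPKM in TBOEP, a rise of 0.68 (limma adjusted p = 8.75e-06). MGST1, a membrane glutathione transferase, rose by 0.55 on the log2 scale (limma adjusted p = 5.36e-06). SLC27A4, an acyl-CoA synthetase also known as a fatty acid transport protein, fell from 20.2, 18.9 and 19.9 FPKM to 14.4, 13.7 and 15.1 FPKM (-0.42, limma adjusted p = 9.21e-05), and at -0.27 was still called lower with GC content and length corrected for. EHHADH, the L-bifunctional protein, differed by -0.03 (95% interval -0.22 to 0.17).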

How the data were processed

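RNA-seq of 6 HK2 libraries was used, grouped by the treatment label. The deposited table gives no unit; from the steps between them, the values the authors deposited were read as FPKM, made from whole reads by dividing by gene length and library depth. Per the submitters' processing notes, Trimmomatic and HISAT2 were used. The counter, build and gene models behind the values were not given in the sources used here. The labels name 2 library kits, 1 of them stranded.

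The members and lists were chosen with earlier results of these data known. limma 3.58.1 (R 4.3.3; trended and robust) was run on log2(FPKM + 1), two-sided, with no covariate, keeping genes that reached 1 FPKM in 3 or more of the 6 libraries. Values per library are given for members called at 0.3 or more on the log2 scale, the member with the smallest p of each role and CAT, ABCD3, ACAA1, PEX5 and PEX14; ABCD4 and PEX16 were added after their values were seen. From other lists up to 4 genes with the smallest p and EHHADH, PPARA, PPARGC1A and CPT1A are named; some other genes are not reported here. Whole reads were recovered for 25801 genes within 0.01 reads, and recovery and test were tested on simulated data. GC content and length came from the longest coding transcript in GENCODE 29, were known for 98.9% of tested genes and were fitted with mgcv 1.9.3. Symbols matched 25795 IDs. Targeting signals of the proteins were not analysed here.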

Additional observations from a re-analysis of the deposited data

How the results depend on the processing

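PEX19, PEX2, PECR and SLC25A17 were called higher and PEX10 and PXMP2 lower in all 16 alternatives, and PEX13 and HACL1 higher in the 15 that tested them. PEX11A was called higher in the 12 that tested it, none of which leaves out a TBOEP library. The 13 rises among the 27 tested genes became 5 with a filter at 5 FPKM. That filter tests 13 of the genes, and 3714 of all 5205 genes it tests were called. The rises were 11 to 12 of 27 without 1 DMSO library. Without 1 TBOEP library, where PEX11A was not tested, they were 9 to 10 of 25. The 3 falls became 5 with quantile normalization and 6 with median centring, which called 5288 and 5485 of all 9631 genes. They were 3 to 4 with 1 library left out. Among other peroxisome genes, the 5 rises became 3 with the GC and length correction and 4 to 5 with 1 library left out, and the 10 falls 8 to 9. All called genes, 5178, numbered 4510 to 4761 with 1 library left out. After the GC and length correction the sign changed in PEX14 (0.16, now called) and CAT (-0.10, called before), and in PEX6, HSD17B4, ACAA1, GNPAT and AGPS, which were called neither before nor after; the cause was not tested.

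Whether replicate numbers pair the libraries could not be told from the values. Deviations from the group means correlated at 0.11, -0.03 and 0.01 between same-numbered libraries. Between differently numbered ones they reached -0.11 and 0.10, and 3 libraries per group are too few to tell pairs apart. With the replicate number as a block, 11 of the 27 tested genes rose and 3 fell, and 4791 of all 9631 genes were called. CAT and LONP2 lost their calls (limma adjusted p = 0.0636 and 0.0653). With no filter on low values 10 of 28 rose and 2 fell, where 4105 of all 25808 genes were called. The calls of PEX3 (limma adjusted p = 0.0792), PEX16 (0.0851), CAT (0.157) and LONP2 (0.0729) ended there. At these depths PEX5 and PEX11A had under 100 reads in at least 1 library.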

Other observations

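Of 12 genes listed as dividing or turning over peroxisomes, several of them shared with mitochondria, 11 were tested, 4 rose, 3 fell and 4 did not pass, where 26.9% of all tested genes rose and 26.9% fell. FIS1, a tail-anchored adaptor of fission, fell from 74.6, 82.0 and 76.2 FPKM to 50.3, 53.9 and 56.0 FPKM (log2 fold change -0.53, limma adjusted p = 3.18e-05). MFF, which recruits the same fission GTPase, rose from 5.27, 4.83 and 5.43 FPKM to 7.61, 7.48 and 7.30 FPKM (0.45, limma adjusted p = 1.10e-04). Both kept their calls after the GC and length correction, at -0.28 and 0.18. VAPA, which tethers peroxisomes to the endoplasmic reticulum, rose by 0.29 and MIGA2 fell by 0.30 on the log2 scale. After the GC and length correction VAPA was at 0.40 and MIGA2 at -0.12 (limma adjusted p = 2.06e-04 and 0.0390).

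PPARA, the receptor named for peroxisome proliferation, was below the filter at 0.579 ± 0.0833 FPKM in DMSO and 0.645 ± 0.0458 in TBOEP, and its coactivator PPARGC1A at 0.502 ± 0.153 and 0.314 ± 0.0601 FPKM (mean ± SD, n = 3 per group). Of 22 listed receptors, cofactors and known targets, 9 were tested, 1 rose, 3 fell and 5 did not pass, beside the same 26.9% each way over all tested genes. PLIN2, a lipid droplet coat protein, measured 9.76, 10.4 and 10.3 FPKM in DMSO and 18.9, 20.5 and 19.7 FPKM in TBOEP (0.89, limma adjusted p = 1.03e-06). Its log2 fold change was 0.48 with GC content and length corrected for. PPARD fell by 0.26, the acyl-CoA dehydrogenase ACADM by 0.24 and the corepressor NCOR1 by 0.20 on the log2 scale. The call of ACADM ended without DMSO replicate 3 or TBOEP replicate 3 (limma adjusted p = 0.0609 and 0.0576), and that of NCOR1 without DMSO replicate 2 or TBOEP replicate 1 or 2 (0.0546 to 0.0702) and after the GC and length correction (0.108). CPT1A did not pass (-0.19, limma adjusted p = 0.0901), and was called lower without DMSO replicate 2 (0.0263).

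SQSTM1, a receptor of selective autophagy on the turnover list and picked here after its values were seen, measured 23.8 FPKM in DMSO replicate 2 and 9.36 to 11.5 FPKM in the other DMSO libraries.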
